A study of Homo sapiens with 13 samples.

Results

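Sprouty proteins (SPRY1, SPRY2 and SPRY4), SPRED proteins (SPRED1, SPRED2 and SPRED3) and SEF, the product of IL17RD, are inhibitors of receptor tyrosine kinase signalling. These 7 genes were taken by symbol from the deposited tables of raw read counts and followed through all 9 groups of the study. The tables list 60500 genes for the doxycycline set and 60554 for the FGF2 set, and each of the 7 symbols matched 1 gene in both.

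Messenger RNA was sequenced in 13 libraries of H9, a human embryonic stem cell line, in a derivative in which doxycycline switches on the proneural factor NEUROG2. The study asked how FGF2 alters expression in the neurons made this way. In the doxycycline set, 1 library each came from cells given 1 µg/ml doxycycline for 5 or for 11 days, from cells without doxycycline on the same days, and from day 0. In the FGF2 set every culture received 1 µg/ml doxycycline for its first 6 days, so its controls are induced neurons as well. Early FGF2, labelled as 20 µg/ml, was given together with doxycycline on days 1 to 6, with harvest on day 6. Its day-6 control had no added FGF2. Late FGF2 was given after doxycycline had ended, with harvest on day 12, against a day-12 control without added FGF2. Each of the 4 groups had 2 libraries. For the late period the labels give both days 6 to 12 and days 7 to 12, and the day-12 control descriptions open with 6 days of growth although their periods add to 12. The medium was E8, for stem cells, for 2 days and 3N, for neural cells, thereafter. There was no culture that received doxycycline without the transgene. Each library came from 1 well. In the FGF2 set titles read hES-N2G1 or hES-N2G2, taken as replicates 1 and 2, while source names read hES-N1, and nothing says whether they were separate cultures or clones, so p-values measure the spread between these libraries, which may be technical.

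Growth factors such as FGF2 bind receptor tyrosine kinases, which pass the signal through adaptor proteins to RAS, RAF, MEK and ERK. ERK signalling in many cell types raises transcription of its own inhibitors, the Sprouty genes among them, which closes a negative feedback loop. Sprouty proteins act near the receptor and at RAF, SPRED proteins bring the RAS inactivator neurofibromin to the membrane, and SEF is a transmembrane protein, described first in zebrafish, that damps FGF signalling. In neurons this pathway takes part in survival, neurite growth and synaptic plasticity.

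The inhibitors lie on 7 chromosomes. On GRCh38, SPRY1 is at chr4:123396795-123403760 on the plus strand, SPRY2 at chr13:80335976-80340951 on the minus strand and SPRY4 at chr5:142310427-142326455 on the minus strand. SPRED1 is at chr15:38252326-38357249 on the plus strand, SPRED2 at chr2:65310851-65432637 on the minus strand and SPRED3 at chr19:38388421-38399587 on the plus strand. IL17RD is at chr3:57089982-57170306 on the minus strand. Their exons in GENCODE 29 add to between 3038 bases in SPRY2 and 9561 bases in IL17RD. In that release no exon base of any of the 7 is shared with another gene (0% in each). The release behind the deposited counts is not given, so overlaps in it were not checked.

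Promoter sequences of RefSeq (GRCh38.p14, 250 bases before to 50 bases after a start site) covered 13 start sites of the 7 genes. They are shown for the Sprouty genes with the largest responses to late FGF2 and for SPRED2 and SPRED3, which were the inhibitors higher with doxycycline on both days. Capitals mark matches to a searched motif, and sequences without capitals had none.
SPRY4, chr5:142324198-142324497, minus strand: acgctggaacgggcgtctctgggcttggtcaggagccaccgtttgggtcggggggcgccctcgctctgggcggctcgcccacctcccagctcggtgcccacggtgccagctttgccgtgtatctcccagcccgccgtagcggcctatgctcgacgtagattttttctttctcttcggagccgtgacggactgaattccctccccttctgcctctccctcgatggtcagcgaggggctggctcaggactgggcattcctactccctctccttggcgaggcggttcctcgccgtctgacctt
SPRY2, first start site, chr13:80341077-80341376, minus strand: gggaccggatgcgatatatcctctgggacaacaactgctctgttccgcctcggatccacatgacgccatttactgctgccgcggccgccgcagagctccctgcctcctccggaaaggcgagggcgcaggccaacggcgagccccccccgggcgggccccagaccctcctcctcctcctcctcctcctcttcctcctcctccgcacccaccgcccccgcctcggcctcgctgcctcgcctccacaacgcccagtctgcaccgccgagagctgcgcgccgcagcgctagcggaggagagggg
SPRED2, first start site, chr2:65432550-65432849, minus strand: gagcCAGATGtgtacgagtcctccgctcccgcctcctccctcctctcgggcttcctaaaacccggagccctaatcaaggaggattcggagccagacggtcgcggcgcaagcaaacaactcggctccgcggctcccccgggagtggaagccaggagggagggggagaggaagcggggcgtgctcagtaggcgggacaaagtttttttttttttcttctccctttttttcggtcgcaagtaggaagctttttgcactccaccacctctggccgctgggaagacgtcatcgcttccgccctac
SPRED3, first start site, chr19:38389541-38389840, plus strand: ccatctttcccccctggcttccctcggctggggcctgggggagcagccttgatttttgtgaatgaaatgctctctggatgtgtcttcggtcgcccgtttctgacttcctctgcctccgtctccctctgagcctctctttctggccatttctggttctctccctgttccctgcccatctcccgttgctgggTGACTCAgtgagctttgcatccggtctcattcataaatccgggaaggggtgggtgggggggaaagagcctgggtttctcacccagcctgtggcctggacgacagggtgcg
SPRED3, second start site, chr19:38388447-38388746, plus strand: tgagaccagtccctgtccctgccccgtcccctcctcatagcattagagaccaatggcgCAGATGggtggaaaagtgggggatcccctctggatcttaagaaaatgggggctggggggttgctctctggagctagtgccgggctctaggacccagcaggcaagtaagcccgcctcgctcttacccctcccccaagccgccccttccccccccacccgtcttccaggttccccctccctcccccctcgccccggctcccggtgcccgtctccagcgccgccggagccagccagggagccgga

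The motifs were searched on both strands. CCGGAAG, a core of sites bound by ETS factors, was found in 1 of the 13 promoters, the second start site of SPRY1, at -67 from the start, and in 10.3% of all 35116 promoters. CAGATG, an E-box bound by NEUROG2 and related factors, was found in 3 of the 13, at -246 and -108 at the first and second start sites of SPRED2 and at -192 at the second of SPRED3, and in 14.7% of all promoters. CATATG, another such E-box, was found in none of the 13 and in 3.04% of all. TGANTCA, with any base at N, includes the AP-1 site TGACTCA but is wider than it. This pattern was found in 2 of the 13 and in 7.71% of all. The matches at -60 at the first start site of SPRED3 and at -6 at the second of SPRED2 read TGACTCA. The match at 35 at the second start site of SPRED2 reads TGAATCA. TGACGTCA, a cyclic AMP response element, was found in none of the 13 and in 1.85% of all. No match lies in the windows of SPRY2, SPRY4, SPRED1 and IL17RD, which says only that these letters are absent there. A match describes the sequence, and no binding was measured.

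The doxycycline libraries held 28443657 to 47159475 counted reads each, and those of the FGF2 experiment 22802501 to 30014661. Levels below are CPM, counts scaled to 1e+06 reads after TMM correction of library sizes, and comparisons between genes use CPM per kilobase of exon. The summed CPM of 5 neuron markers was 7511 and 7629 on days 5 and 11 with doxycycline, against 17.7 and 25.9 without it, and lay between 5841 and 9404 in the FGF2 set, where every library is induced. The excitatory markers SLC17A6 and SLC17A7 summed to between 344 and 617 CPM in the induced libraries. The summed level of 4 dividing-cell markers was 7.04 to 10.3 CPM in the day-12 libraries and 267 to 392 CPM in the day-6 libraries. Replicates of day 6 with FGF2 agreed least, at a chi-square over its degrees of freedom of 19.0, and 2.87 to 3.26 in the other 3 groups. In these bulk samples fewer cells that express a gene and less RNA per cell cannot be told apart.

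**Figure D1:**
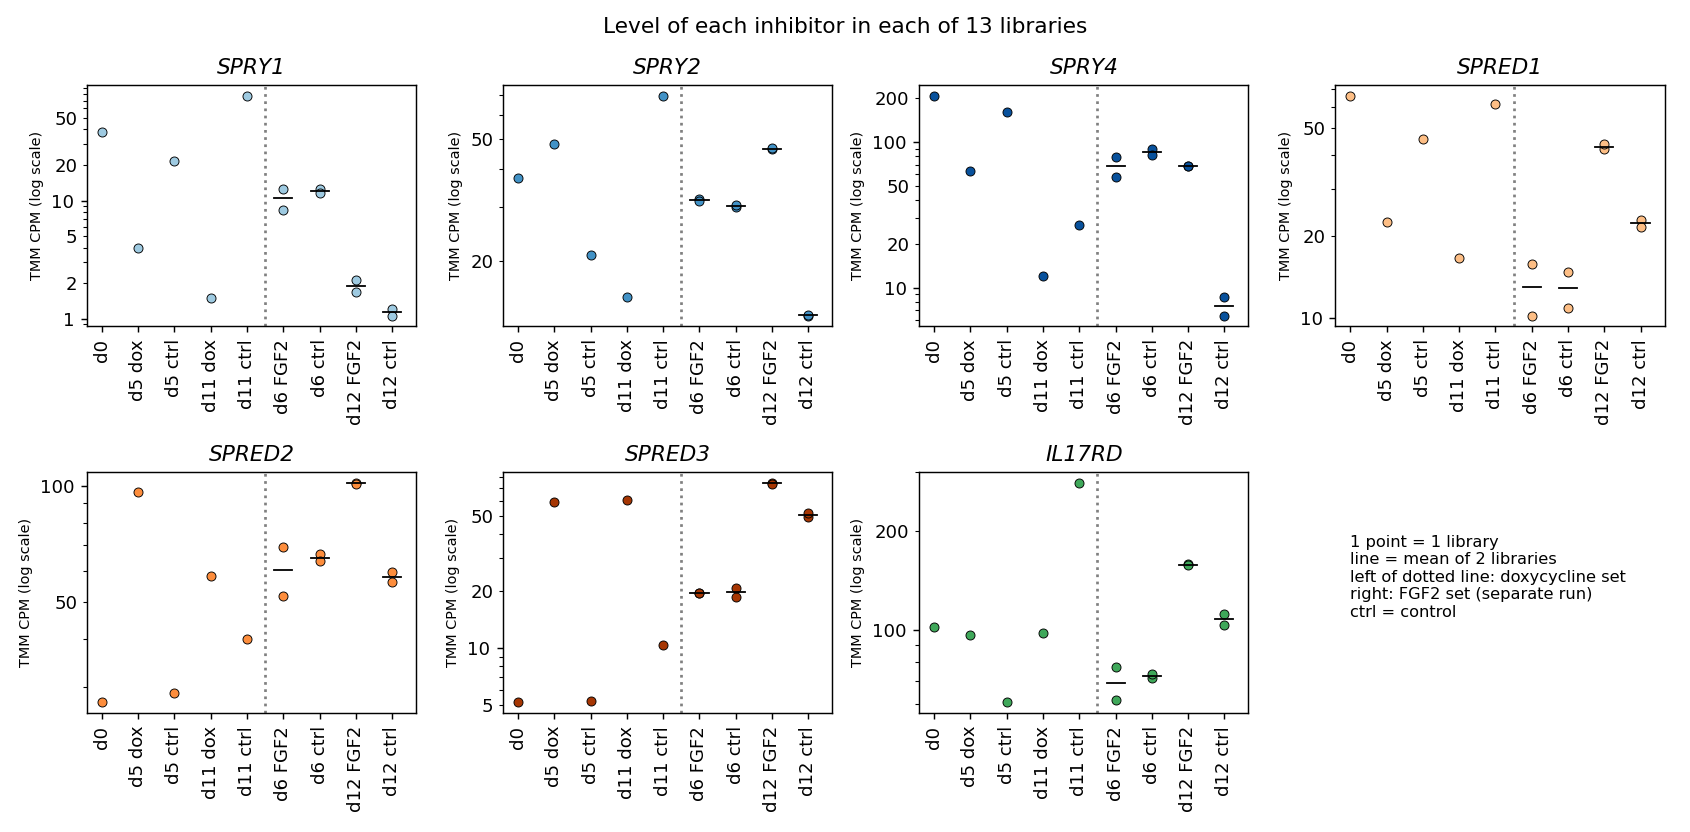
Level of each inhibitor in each of the 13 libraries, as TMM-scaled CPM on a log axis, with 1 panel per gene; points are libraries and lines are means of 2. SPRY4 lay at 68.1 and 68.0 CPM with late FGF2 and at 8.60 and 6.44 CPM in the day-12 control, whereas SPRED3 was above 59 CPM in both doxycycline libraries and at 5.27 and 10.4 CPM in the matching controls.

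Late FGF2 raised 6 of the 7 inhibitors, which were chosen with earlier results of these data known. The largest changes were those of SPRY4 and SPRY2. Among all 20142 genes tested, 2.17% were called in this comparison and 1.63% were called higher. SPRY4 rose 9.03-fold, SPRY2 3.50-fold, SPRED1 1.91-fold, SPRED2 1.76-fold, SPRED3 1.47-fold and IL17RD 1.46-fold, by edgeR's quasi-likelihood test. With early FGF2 none of the 7 and 0% of all genes tested were called by edgeR, DESeq2 or limma; at an unadjusted p under 0.05 edgeR had 658 genes, 1 of them an inhibitor. The median log2 change of the 7 genes was 0.81 with late FGF2 and -0.07 with early FGF2, beside 0.00 and 0.01 over all genes tested.

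SPRY4, a Sprouty that acts at RAF, was at 68.1 and 68.0 CPM in the day-12 FGF2 libraries, against 8.60 and 6.44 CPM in the day-12 control libraries. The lowest FGF2 library thus lay far above the highest control library. The log2 change was 3.17 ± 0.16 (SE), with an adjusted p of 9.6e-09 by edgeR, and SPRY4 ranked 7 of 20142 genes by p. On day 6 SPRY4 was at 79.3 and 57.6 CPM with FGF2 and at 89.4 and 80.9 CPM in the control. Both early FGF2 libraries lay below both controls, and this change of -0.31 ± 0.13 was not called (unadjusted p = 0.028, adjusted p = 0.93 by edgeR). The late effect exceeded the early one by 3.49 ± 0.20 on the log2 scale (adjusted p = 2.2e-07 by edgeR).

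SPRY2, which binds the adaptor GRB2 and the ubiquitin ligase CBL, was at 46.3 and 46.7 CPM in the day-12 FGF2 libraries, against 13.3 and 13.3 CPM in the day-12 controls. The groups did not overlap, and the spread within each was far smaller than the gap between them. The log2 change was 1.81 ± 0.09 (SE), with an adjusted p of 1.6e-08 by edgeR. On day 6 the gene stood at 31.8 and 31.4 CPM with FGF2 and at 30.1 and 30.5 CPM in the control, a change of 0.06 ± 0.09 that was not called (adjusted p = 0.94 by edgeR). The late effect exceeded the early one by 1.75 ± 0.13 (adjusted p = 2.6e-06 by edgeR).

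SPRY1, known in mouse for limiting RET signalling in the developing kidney, was the exception among the 7. It was at 2.13 and 1.68 CPM in the day-12 FGF2 libraries and at 1.22 and 1.07 CPM in the day-12 controls, from 57 and 51 reads against 30 and 25 reads. Both FGF2 libraries were higher, yet the log2 change of 0.73 ± 0.30 was not called (adjusted p = 0.37 by edgeR). This is the least precise of the 7 estimates, and its size lies among those of the called SPRED genes. On day 6 SPRY1 was at 12.6 and 8.29 CPM with FGF2 and at 12.4 and 11.5 CPM in the control, and these ranges overlapped (change -0.19 ± 0.18, adjusted p = 0.93 by edgeR).

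SPRED1, the SPRED gene whose loss causes Legius syndrome in humans, was at 41.9 and 43.8 CPM in the day-12 FGF2 libraries, against 23.1 and 21.6 CPM in the day-12 controls. Its log2 change was 0.94 ± 0.16 (adjusted p = 0.0034 by edgeR), with no overlap. SPRED2, which limits bone growth signalling in mouse, was at 102 and 101 CPM with late FGF2 and at 59.6 and 56.0 CPM in the day-12 control, a change of 0.81 ± 0.11 (adjusted p = 4.7e-04 by edgeR). SPRED3, described in mouse as the SPRED of brain, was at 74.7 and 73.9 CPM with late FGF2 and at 49.4 and 51.9 CPM in the day-12 control, a change of 0.55 ± 0.09 (adjusted p = 0.0017 by edgeR). In each of these 3 genes both FGF2 libraries exceeded both controls, though the share of all genes with such a separation was not counted. On day 6 all 3 overlapped between FGF2 and control, with SPRED1 at 15.8 and 10.2 CPM against 14.8 and 10.9 CPM. SPRED2 was then at 69.2 and 51.7 CPM with FGF2 and at 66.4 and 63.6 CPM in the control. SPRED3 was at 19.6 and 19.6 CPM with FGF2 and at 18.7 and 20.7 CPM in the control. None of the 3 early changes was called.

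IL17RD was at 159 and 157 CPM in the day-12 FGF2 libraries, against 112 and 104 CPM in the day-12 controls. The groups did not overlap, and its change of 0.55 ± 0.10 was, with that of SPRED3, the smallest of the 6 called (adjusted p = 0.0043 by edgeR). On day 6 the gene was at 77.2 and 61.6 CPM with FGF2 and at 71.7 and 73.7 CPM in the control, and the FGF2 libraries lay on either side of the controls.

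The difference between the late and the early effect was called for 3 of the 7 inhibitors, SPRY4, SPRY2 and SPRED2, all higher, against 0.73% of all genes called and 0.645% called higher. For SPRED2 it was 0.91 ± 0.16 on the log2 scale (adjusted p = 0.0080 by edgeR). IL17RD (0.61, adjusted p = 0.057), SPRED3 (0.56, adjusted p = 0.073), SPRED1 (0.92, adjusted p = 0.14) and SPRY1 (0.92, adjusted p = 0.53) had positive differences that this edgeR fit did not call. SPRED1, SPRED3 and IL17RD were called as well with DESeq2 (adjusted p = 0.037, 0.046 and 0.013) and by edgeR without a filter on low counts, which made 6 of 7 in each. Leaving out 1 library gave 2 to 7 calls by edgeR, with 7 without replicate 1 and 5 without replicate 2 of day 6 with FGF2, and 2 without replicate 1 of the day-6 control or replicate 2 of the day-12 control. The early and late comparisons share no library.

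The calls of SPRY4, SPRY2 and SPRED2 with late FGF2 were kept when any 1 of the 8 libraries was left out. SPRED1 was not called without replicate 2 of the day-12 control (adjusted p = 0.090 by edgeR), nor SPRED3 without replicate 1 of it (0.053). IL17RD was not called without replicate 2 of the day-12 control (0.14) or without replicate 1 or 2 of day-12 FGF2 (0.067 and 0.064). The early changes depended on which library of day 6 with FGF2 was kept. Without replicate 1 the log2 changes were -0.56 for SPRY4, -0.33 for SPRED2 and -0.24 for IL17RD. Without replicate 2 they were 0.09 for SPRED2 and 0.09 for IL17RD, and that of SPRY4 stayed negative. Each such fit keeps 1 library of the group whose replicates agreed least and takes the spread from the other groups. It therefore cannot show whether early FGF2 changed these genes. For 5 of the 7 genes, replicate 2 of day 6 with FGF2 was at 0.65 to 0.80 of the level in replicate 1, and SPRY2 and SPRED3 were at 0.99 and 1.00.

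In the authors' deposited tables the same 6 inhibitors have an adjusted p under 0.05 with late FGF2 by DESeq2 and by limma. The log2 change of SPRY4 is 2.52 in the authors' deposited DESeq2 table and 3.18 in their limma table. For SPRY1 the authors' deposited limma table gives 0.70 with an adjusted p of 0.22, and their DESeq2 table gives 0.17 with no adjusted p. With early FGF2 neither of the authors' deposited tables has a gene under 0.05.

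**Figure D2:**
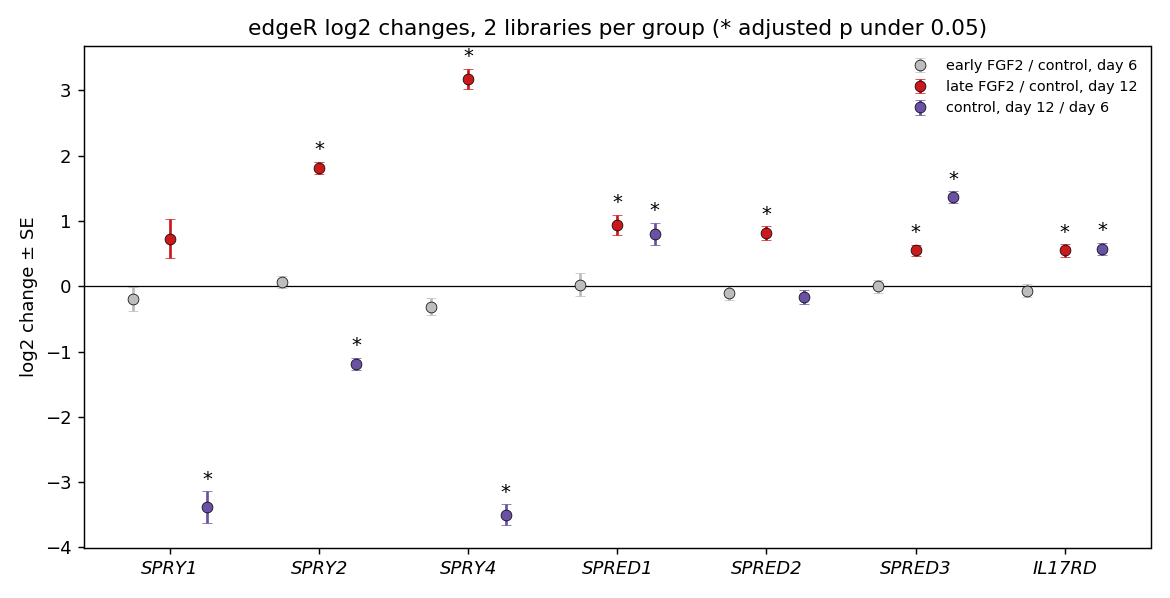
Log2 change ± SE of each inhibitor from the edgeR fit, for early FGF2 over its day-6 control, late FGF2 over its day-12 control and the day-12 over the day-6 control, with stars at an adjusted p under 0.05. SPRY4 changed by 3.17 with late FGF2 and by -3.50 between the controls; these comparisons share the day-12 control libraries.

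Between the day-6 and day-12 controls, none of which received added FGF2, the genes moved in different directions. The 3 Sprouty genes among the 7 fell, SPRED1, SPRED3 and IL17RD rose and SPRED2 was not called. Thus 6 of the 7 were called, against 64% of all genes tested (31.7% higher and 32.3% lower). SPRY4 was 11.3-fold lower on day 12 (log2 change -3.50 ± 0.16, adjusted p = 2.8e-11 by edgeR) and SPRY1 10.4-fold lower (-3.38 ± 0.24, adjusted p = 8.3e-09). SPRY2 was 2.28-fold lower (-1.19 ± 0.10, adjusted p = 2.7e-08 by edgeR). SPRED3 was 2.57-fold higher (1.36 ± 0.09, adjusted p = 3.9e-09 by edgeR), SPRED1 1.74-fold higher (0.80 ± 0.17, adjusted p = 8.4e-04) and IL17RD 1.48-fold higher (0.57 ± 0.10, adjusted p = 1.0e-04). In each of these 6 genes the day-12 and day-6 controls quoted above did not overlap, and the share of all genes without overlap was not counted. SPRED2 changed by -0.17 ± 0.11, which was not called (adjusted p = 0.20 by edgeR). Cell type markers moved in the same comparison. The 4 dividing-cell markers all fell, with a sum of 8.43 and 10.3 CPM in the day-12 controls against 392 and 329 CPM in the day-6 controls. Of 5 neural progenitor markers 4 fell and 1 rose, with a sum of 539 and 577 CPM in the day-12 controls against 1496 and 1500 CPM in the day-6 controls. Of 5 neuron markers 3 rose and 1 fell, with a sum of 9404 and 9296 CPM in the day-12 controls against 5841 and 6034 CPM in the day-6 controls, and the 2 excitatory markers split into 1 higher and 1 lower. Of 4 mesenchyme markers 3 fell and 1 rose, at sums of 6.65 and 6.74 CPM in the day-12 controls against 37.3 and 35.2 CPM in the day-6 controls. Both pluripotency markers tested fell, and lists of neural crest, astroglia and epithelium had 1 to 3 calls each at sums of 0.386 to 11.2 CPM. The day-12 cultures also no longer received doxycycline. The part of any of these in the changes of the inhibitors was not tested.

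Set against the same day-6 control, the day-12 FGF2 libraries gave a different profile, and the late FGF2, day-12 control and day-12 FGF2 comparisons share libraries. All 7 genes were called, against 63.1% of all genes tested, with 5 higher and 2 lower (31.5% and 31.6% of all genes). SPRY1 was 6.29-fold lower (log2 change -2.65 ± 0.22, adjusted p = 3.9e-08 by edgeR), next to 10.4-fold in the untreated day-12 cultures. SPRY4 was 1.25-fold lower (-0.32 ± 0.13, adjusted p = 0.040 by edgeR), next to 11.3-fold in the untreated day-12 cultures. This SPRY4 call was lost with scaling to library totals (adjusted p = 0.085) and on leaving out any 1 of the 4 libraries compared (0.059 to 0.22). SPRY2 was 1.53-fold higher (0.62 ± 0.09) and SPRED2 1.56-fold higher (0.64 ± 0.11) in the edgeR fit. IL17RD was 2.17-fold higher (1.12 ± 0.10), SPRED1 3.33-fold higher (1.73 ± 0.17) and SPRED3 3.77-fold higher (1.92 ± 0.09).

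Ordered by level across the 4 groups of the FGF2 set, SPRY2, SPRED1, SPRED2, SPRED3 and IL17RD were each highest with late FGF2, whose libraries exceeded all 6 others. The share of all genes with this order was not counted, so it describes single genes and is no result about the inhibitors as a group. SPRY2 was lowest in the day-12 control. SPRY4 was highest in the day-6 control, followed by the day-6 and day-12 FGF2 groups, whose ranges overlapped, and then by the day-12 control. SPRY1 was high in both day-6 groups, which overlapped, then in the day-12 FGF2 group and last in the day-12 control. For SPRED2 the day-6 FGF2 libraries, at 51.7 to 69.2 CPM, spanned those of both controls.

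Per kilobase of exon the 7 genes together were expressed at 80.2 ± 0.12 CPM per kb with late FGF2 and at 39.7 ± 1.19 in the day-12 control (SD, n = 2 each). Sprouty genes made up 32.6% ± 0.04 of that sum with late FGF2 and 14.6% ± 0.20 in the day-12 control. SPRED genes made up 46.8% ± 0.07 with late FGF2 and 56.9% ± 0.92 in the day-12 control. On day 6 Sprouty genes held 49.6% ± 0.80 with FGF2 and 50.8% ± 0.64 in the control. The leading gene on day 12 was SPRED2 with late FGF2, at 19.7 CPM per kb. In the day-12 control IL17RD and SPRED2, at 11.3 ± 0.62 and 11.2 ± 0.49, did not differ beyond their spread. SPRY1 was the lowest of the 7 in both day-12 groups, at 0.48 CPM per kb with late FGF2 and 0.29 in the control.

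**Figure D3:**
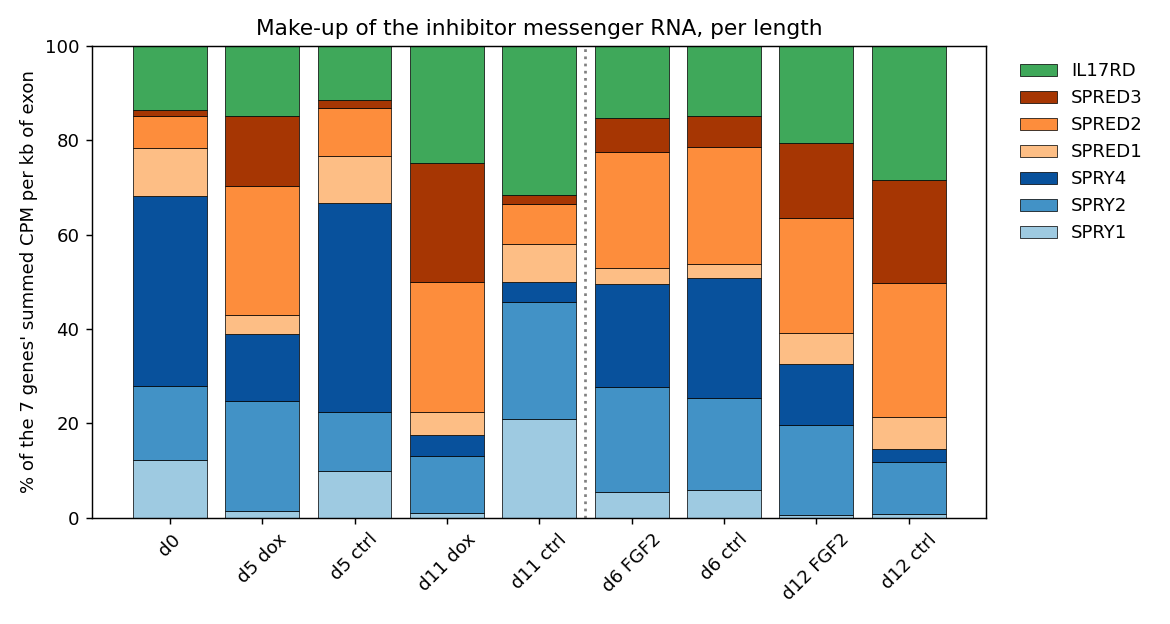
Share of each inhibitor in the summed CPM per kilobase of exon of the 7 genes, as a mean over the libraries of each group (1 library in the doxycycline set, left of the dotted line, and 2 in the FGF2 set). The blue Sprouty share was 32.6% with late FGF2 and 14.6% in the day-12 control, and 17.6% and 50.0% on day 11 with and without doxycycline.

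In the doxycycline set, where each group is 1 library and no test was possible, the inhibitors differed in direction with neuronal induction. SPRED3 was higher and SPRY1 lower with doxycycline on both days, each past 4-fold. On day 5 these were the 2 of 7 past 4-fold in either direction, next to 24.1% of the 12895 genes that reached 10 CPM in 1 of the libraries. On day 11 SPRY2 was also past 4-fold, which made 3 of 7, next to 21.4% of 12655 genes. The count of 2 in 7 on day 5 is near the share over all genes, and that of 3 in 7 on day 11 is above it. With 7 genes and 1 library per group, neither count is a result about the inhibitors as a group. At 2-fold the count was 5 of 7 on day 5 and 6 of 7 on day 11, next to 50.2% and 45.8% of genes. Ratios carry a 95% exact binomial interval that covers counting error only, and the fold rule was applied after adding 1 CPM to both levels.

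SPRED3 was at 59.3 CPM with doxycycline and at 5.27 CPM in the control on day 5, a ratio of 11.3 (9.63 to 13.2). On day 11 it was at 60.6 CPM with doxycycline and at 10.4 CPM in the control, a ratio of 5.85 (5.22 to 6.58). The level with doxycycline was alike on both days, and the smaller day-11 ratio came with a higher control. SPRED2 was at 96.3 and 28.9 CPM with and without doxycycline on day 5, a ratio of 3.33 (3.10 to 3.59), and at 58.4 and 39.9 CPM on day 11, a ratio of 1.46 (1.36 to 1.57). SPRED1 went the other way within the family, at 22.5 CPM with doxycycline and 45.6 CPM in the control on day 5. On day 11 it was at 16.7 CPM with doxycycline and 61.4 CPM in the control, a 3.68-fold lower level (3.35 to 4.05).

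SPRY1 was at 3.99 CPM with doxycycline and at 21.7 CPM in the control on day 5, a 5.44-fold lower level (4.58 to 6.49). On day 11 it was at 1.51 CPM, from 50 reads, with doxycycline and at 76.6 CPM, from 2542 reads, in the control, a 50.5-fold lower level (38.2 to 68.3). Both a lower induced and a higher uninduced library stand behind the day-11 ratio. SPRY4 was at 63.7 and 160 CPM with and without doxycycline on day 5, a 2.52-fold lower level (2.40 to 2.64). On day 11 it was at 12.1 CPM with doxycycline and at 26.7 CPM in the control, a 2.22-fold lower level (1.97 to 2.50). SPRY4 thus was lower on day 11 than on day 5 both with doxycycline, 5.28-fold (4.75 to 5.89), and in the controls, 6.00-fold (5.59 to 6.45).

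SPRY2 and IL17RD were higher with doxycycline on day 5 and lower on day 11. SPRY2 was at 48.4 CPM with doxycycline and 20.9 CPM in the control on day 5, a ratio of 2.32 (2.12 to 2.53), and at 15.3 and 69.3 CPM on day 11, a 4.54-fold lower level with doxycycline (4.12 to 5.01). IL17RD was at 96.5 CPM with doxycycline and 60.6 CPM in the control on day 5, a ratio of 1.59 (1.51 to 1.68). On day 11 it was at 98.0 CPM with doxycycline and 279 CPM in the control. IL17RD with doxycycline was therefore at nearly the same level on both days, with an 11-over-5 ratio of 1.01 (0.97 to 1.06). The change of direction came with the control, in which it was 4.61-fold higher on day 11 (4.39 to 4.84).

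**Figure D4:**
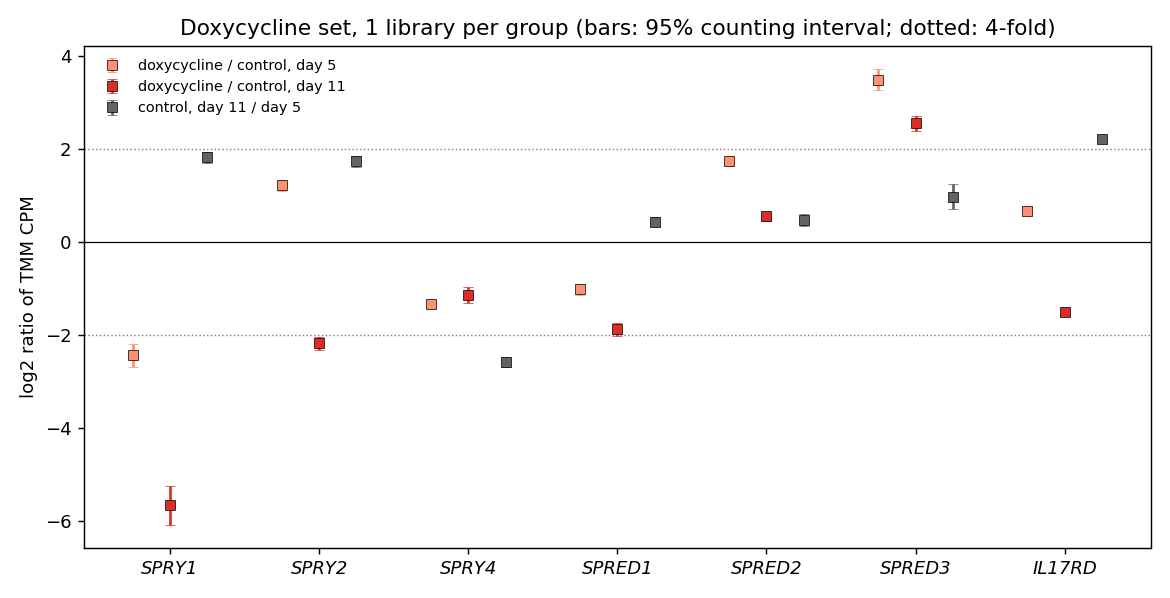
Log2 ratio of TMM-scaled CPM of each inhibitor for doxycycline over control on days 5 and 11 and for the day-11 over the day-5 control, with 95% counting intervals and dotted lines at 4-fold; each group is 1 library. SPRED3 lay at 11.3-fold on day 5, SPRY1 was 50.5-fold lower on day 11, and the squares of SPRY2 and IL17RD lie on opposite sides of 0 on the 2 days. These comparisons share libraries.

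The uninduced cultures changed in their own right. From day 0 through day 5 to day 11 without doxycycline, SPRY4 was at 207, 160 and 26.7 CPM. SPRY1 was at 38.3, 21.7 and 76.6 CPM and SPRY2 at 37.3, 20.9 and 69.3 CPM over the same days, lowest on day 5 and highest on day 11. IL17RD followed that order at 102, 60.6 and 279 CPM. SPRED1 was at 65.8, 45.6 and 61.4 CPM, SPRED2 at 27.4, 28.9 and 39.9 CPM and SPRED3 at 5.17, 5.27 and 10.4 CPM. None of the 7 passed 4-fold between day 0 and day 5, where 1.05% of genes did, and none passed 2-fold, where 9.95% did. Between day 5 and day 11 IL17RD was past 4-fold upwards and SPRY4 past 4-fold downwards, next to 6.98% of genes. At 2-fold 4 of the 7 passed, next to 23.3%. With doxycycline, 1 of the 7, SPRY4, passed 4-fold between day 5 and day 11, next to 1.96% of genes, and SPRY2 with it passed 2-fold, next to 7.93%. Marker sums moved with these comparisons. Those of 5 pluripotency markers were 547 and 166 CPM on days 5 and 11 with doxycycline, and 3494, 3108 and 1409 CPM on days 0, 5 and 11 without it. Those of the dividing-cell markers were 51.7 and 21.4 CPM with doxycycline and 1297, 1238 and 1439 CPM without it. Epithelium markers summed to 37.4 and 40.7 CPM with doxycycline and to 854, 986 and 771 CPM without it. Mesenchyme markers summed to 22.7 and 29.6 CPM with doxycycline and to 244, 947 and 248 CPM without it. Of these, COL1A1 alone was at 726 CPM in the day-5 control. COL3A1 was higher with doxycycline on days 5 and 11, at 0.77 and 4.12 CPM against 0 and 0.81 CPM. The other members were lower with doxycycline on both days. COL1A1 and COL3A1 are named after their values were seen. Neural crest markers summed to 1.81 and 2.03 CPM with doxycycline and to 248, 282 and 121 CPM without it. Neural progenitor markers summed to 1012 and 516 CPM with doxycycline and to 393, 655 and 621 CPM without it. Within that list, whose genes are named here after their values were seen, the members differed. NES was at 972 and 493 CPM with doxycycline on days 5 and 11, and at 201, 405 and 209 CPM without it. SOX2 was at 34.7 and 17.5 CPM with doxycycline and at 191, 249 and 306 CPM without it. PAX6 was at 4.11 and 4.54 CPM with doxycycline and at 1.32, 1.28 and 101 CPM without it. SOX1 and HES5 reached at most 3.49 CPM in these libraries. The part of any of these markers in the levels of the inhibitors was not tested. With scaling to library totals the median log2 ratio of all genes on day 11 was -0.18, in place of 0.16 with TMM, and all 7 inhibitors kept their direction on both days.

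By share of the summed level per kilobase, Sprouty genes held 39.0% with doxycycline and 66.7% in the control on day 5. On day 11 they held 17.6% with doxycycline and 50.0% in the control. SPRED genes held 46.2% and 21.8% with and without doxycycline on day 5, and 57.5% and 18.4% on day 11. At day 0 SPRY4 alone held 40.3%, at 31.6 CPM per kb, and SPRED3 held 1.12%. The rank of SPRY4 per kilobase was 1 at day 0 and in the day-5 control and 6 in both day-11 libraries, whereas SPRED2 ranked 1 with doxycycline on both days.

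Other genes of the pathway were taken from 4 lists, which were chosen with earlier results of these data known. Of 20 other ERK feedback genes and targets, 19 were tested, and 10 rose and 1 fell with late FGF2, next to 1.63% of all genes called higher and 2.17% called either way. The list's median log2 change was 0.75. ETV4, an ETS factor induced by FGF signalling, was at 96.7 and 99.6 CPM with late FGF2 and at 2.31 and 1.15 CPM in the day-12 control (5.81 ± 0.17). DUSP6, a phosphatase that inactivates ERK, was at 223 and 253 CPM with late FGF2 and at 36.3 and 32.3 CPM in the day-12 control (2.79 ± 0.09). ETV5 was at 84.2 and 87.7 CPM with late FGF2 and at 40.1 and 41.0 CPM in the day-12 control (1.08 ± 0.08). SPRY4 thus had a log2 change between those of ETV4 and DUSP6, and SPRY2 one between those of DUSP6 and ETV5. Early FGF2 called none of the 19.

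Receptors, cascade genes and partners of the inhibitors had 1 or 2 members called each, next to 2.17% of all genes called. Of 20 receptors tested, RET rose to 481 and 497 CPM with late FGF2, against 258 and 270 CPM in the day-12 control (0.89 ± 0.07, adjusted p = 3.3e-06 by edgeR). KIT was the 1 receptor that fell, at 4.08 and 3.69 CPM with late FGF2 and 6.85 and 7.09 CPM in the day-12 control (-0.84 ± 0.16, adjusted p = 0.0077 by edgeR), and the list's median log2 change was -0.14. Of 22 adaptor, RAS, RAF, MEK and ERK genes tested, the adaptors SHC3 (1.89 ± 0.10) and SHC1 (0.80 ± 0.10) rose and none fell, with a median of -0.01. Of 12 partners of Sprouty and SPRED proteins, 11 were tested and 1 rose, MKNK1, a kinase downstream of ERK (0.55 ± 0.11, adjusted p = 0.012 by edgeR), with a median of 0.02. SPRY3, a Sprouty gene outside the 7 and named after its values were seen, is in this list and was not called. Against the day-6 control, SPRY3 was called higher in the day-12 FGF2 libraries (1.72 ± 0.59, adjusted p = 0.019 by edgeR). NF1, which encodes neurofibromin and was named after its values were seen, was at 177 and 189 CPM with late FGF2 and at 183 and 180 CPM in the day-12 control. Cell type markers gave few calls in this comparison. Of 5 neural progenitor markers, SOX2 (-0.56 ± 0.08) and SOX1 (-2.64 ± 0.45) were called lower with late FGF2. Both were named after their values were seen. SOX1 was at low levels, with means of 0.35 CPM with late FGF2 and 2.21 CPM in the day-12 control. PAX6 (-0.27 ± 0.11), NES (0.25 ± 0.07) and HES5 (0.74 ± 0.43) were not called. The progenitor sum was 590 and 658 CPM with late FGF2 and 539 and 577 CPM in the day-12 control. The other marker lists had no call. The neuron marker sum was 9102 and 9349 CPM with late FGF2 and 9404 and 9296 CPM in the day-12 control. The dividing-cell sum was 7.04 and 9.59 CPM with late FGF2 and 8.43 and 10.3 CPM in the day-12 control, and these ranges overlapped.

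Across the 13 libraries, centred within each sequencing run, the genes most alike to each inhibitor were ranked by Pearson's r of log2(CPM + 1) among 12447 genes. The points share libraries, and induction and day of culture order most genes, so these values are descriptions. SPRED3 was followed most closely by PLCXD3, RGS4 and CHL1 (r = 0.996, 0.993 and 0.993). SPRY1 was followed by TWSG1, TIMELESS and ANP32E (r = 0.992, 0.988 and 0.986). SPRED1 was followed by MOB3B, CADPS2 and PPAT (r = 0.976, 0.968 and 0.956), and SPRY4 by ITGB1P1, ZMAT4 and ELOVL5 (r = 0.948, 0.910 and 0.896). SPRED2 was followed by SHC4, KCNIP4 and ADAM12 (r = 0.941, 0.935 and 0.934), and IL17RD by DHX32, HLCS and EPHB3 (r = 0.936, 0.924 and 0.919). SPRY2 had the weakest neighbours, HAPLN1, BCHE and DNAJC19 (r = 0.794, 0.779 and 0.771). Among the inhibitors themselves the highest r was that of SPRED2 and SPRED3 (0.84) and the lowest that of SPRY1 and SPRED3 (-0.88). SPRY2 and SPRY4 were at 0.54 and SPRED1 and IL17RD at 0.65.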

How the data were processed

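RNA from single wells was made into TruSeq RNA v2 libraries and sequenced as single-end reads, per the labels' protocols. The authors deposited raw counts per gene, and the submitters' processing notes name Subread, featureCounts 1.5.0 and GRCh38; the strand setting and gene annotation release are not given in the sources used here, and gene coordinates and lengths come from GENCODE 29 on GRCh38. Further deposited files hold normalized signal values of the doxycycline libraries, used here as an alternative, and tables of log2 fold changes and p-values from DESeq2 and limma. The 16 per-sample columns inside those tables were not used here. A deposited p-value or log2 change is quoted only as the authors' own.

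An edgeR model (edgeR 4.0.16, R 4.3.3) was fitted to all 8 FGF2 libraries (filterByExpr, 20142 genes, TMM scaling, quasi-likelihood test, 1 mean per group). Tests were two-sided, p was adjusted by Benjamini-Hochberg across every gene tested, and calls needed an adjusted p under 0.05. Levels are CPM, counts scaled to 1e+06 reads. The 5 doxycycline libraries have no replicates and were compared as ratios, with genes of at least 10 CPM counted at 4-fold or more after adding 1 CPM. The scripts were tested on simulated data. Alternatives were DESeq2 1.42.0, limma 3.58.1 (voom), other scalings, no filter, fits of fewer groups, other pseudocounts, a 2-fold threshold, a replicate block and leaving out each library.

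The 7 genes and the lists were chosen with earlier results of these data known. Named genes are the 7 inhibitors, up to 3 called members per pathway list with late FGF2 by smallest p, and the 3 genes most like each inhibitor with a mean of at least 5 CPM; others are said to be named after their values were seen.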

Additional observations from a re-analysis of the deposited data

Results flagged for a closer look

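A response that differed between the early and the late FGF2 period, by the edgeR test of the difference itself, was found for SPRY4 (3.49 on the log2 scale), SPRY2 (1.75) and SPRED2 (0.91). The SPRED2 difference was not called without replicate 1 of the day-6 control (adjusted p = 0.068 by edgeR) or replicate 2 of the day-12 control (0.085), whereas those of SPRY4 and SPRY2 were called in every such fit.

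Opposite directions with doxycycline on day 5 and on day 11 were seen for SPRY2 (log2 ratios of 1.17 and -2.11) and for IL17RD (0.66 and -1.50). Each day has 1 library with and 1 without doxycycline, and the difference between the days was not tested.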

How the results depend on the processing

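Late FGF2 called 6 inhibitors under every scaling, test and filter tried, and 4 to 6 with 1 library left out, where the lone library of a group is assumed to vary like the other groups. The count of inhibitors called for the late minus early difference was 6 with DESeq2, without a filter and with the replicate block, against 3, and 2 to 7 with 1 library left out. Early FGF2 called 0 to 3 inhibitors with 1 library left out. Genes called with late FGF2 numbered 656 without a filter and 1338 in a fit of the 2 day-12 groups alone, against 437, and 184 to 1188 with 1 library left out. For the difference they numbered 268 without a filter, against 147, and 78 to 1345 with 1 library left out. For early FGF2 they numbered 0 to 2523. Without a filter 38116 genes entered. Same-numbered libraries deviated together with r of 0.0042 to 0.0982, so the numbers are not shown to pair them; with the replicate block 598 genes were called with late FGF2 and 206 for the difference, and no inhibitor lost a call. SPRED2 between the controls was called in the fit of those 2 groups alone (log2 change -0.16, adjusted p = 0.039 by edgeR).

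In the doxycycline set a 2-fold threshold gave 6467 genes on day 5, 5796 on day 11, 909 between the days with doxycycline, 1186 from day 0 to day 5 and 2844 from day 5 to day 11 without it. It gave 5, 6, 2, 0 and 4 inhibitors in the same order. Adding 5 CPM in place of 1 gave 101, 52 and 464 genes in the last 3 comparisons and 1 inhibitor on day 5. Scaling to library totals took SPRED1 on day 11 past 4-fold (log2 ratio -2.12), and SPRY1 in the day-11 over the day-5 control (2.02). Genes past 4-fold on day 11 split into 1457 higher and 1247 lower with TMM and into 1203 and 1625 with library totals. No direction of an inhibitor past a threshold reversed under any alternative.

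With 2 libraries a group, small changes such as those of IL17RD and SPRED3 hang on single libraries. SPRY1 on day 12 rests on 25 to 57 reads a library, and intervals in the doxycycline set cover counting error only.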
